A study of Mus musculus with 13 samples.

Results

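The genes described here are 10 members of the NF-kB and C/EBP systems, found by symbol among the 34745 genes of an olfactory bulb RNA sequencing table. They are the NF-kB subunits Nfkb1, Nfkb2 and Relb, the feedback genes Nfkbia, Tnfaip3 and Ier3, the nuclear IkB genes Nfkbiz and Bcl3, and the transcription factors Cebpb and Cebpd. Each symbol matched 1 row. The members were picked by name, with earlier results of these data known.

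The olfactory bulbs came from wild type C57BL/6 mice aged 7 to 8 weeks per the sample labels, in 13 samples with 1 library each. Mice exposed to PM2.5, the fine fraction of airborne particulate matter, at 10 mg/kg/3 day (high dose, 3 libraries) were compared with untreated controls of the 2nd set (3 libraries). Mice exposed at 3 mg/kg/3 day (low dose, 3 libraries) were compared with untreated controls of the 1st set (4 libraries). The labels describe the controls as having no treatment, so no vehicle is named for them. The sources used here name neither the route of exposure nor whether each sample was a single animal. The p-values therefore measure the spread between these samples, which may be technical.

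NF-kB proteins are dimers that inhibitors of the IkB family hold in the cytoplasm. Signals from cytokine and Toll-like receptors lead to loss of the inhibitor, and the dimers enter the nucleus. Among the genes that they induce are their own inhibitors, so transcripts of the feedback genes are often read as a sign of recent signalling. C/EBP beta and delta are leucine zipper factors induced by inflammatory cytokines. In the brain these genes are used by glia, endothelium and macrophages as well as neurons, and a bulk library does not tell these sources apart. A higher level can come from more cells of a type or from more RNA per cell, and bulk values cannot separate these.

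Promoter sequences are shown for 4 of the genes because a match to the kB consensus lies just before a RefSeq transcription start. That consensus is the DNA element bound by NF-kB dimers. The RefSeq table (GRCm38.p6) held promoter windows for 6 of the 10 members, Nfkbia, Tnfaip3, Bcl3, Nfkb2, Ier3 and Cebpb. The 250 bases before each start were searched on both strands, and the consensus was found in 4 of these 6 genes. These 6 genes have 9 windows, of which 6 held a match. The consensus occurred in 3.9% of the 32851 promoter windows of that length in the table. Each sequence runs 5′ to 3′ on the strand of the gene and ends at the base before the start, with the matched bases in capitals.
Nfkbia, chr12:55492648-55492897, minus strand: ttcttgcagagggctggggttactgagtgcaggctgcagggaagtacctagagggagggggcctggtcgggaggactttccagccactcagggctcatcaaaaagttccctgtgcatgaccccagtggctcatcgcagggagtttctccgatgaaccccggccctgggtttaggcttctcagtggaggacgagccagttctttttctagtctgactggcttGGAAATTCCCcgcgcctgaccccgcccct
Tnfaip3, chr10:19015411-19015660, minus strand: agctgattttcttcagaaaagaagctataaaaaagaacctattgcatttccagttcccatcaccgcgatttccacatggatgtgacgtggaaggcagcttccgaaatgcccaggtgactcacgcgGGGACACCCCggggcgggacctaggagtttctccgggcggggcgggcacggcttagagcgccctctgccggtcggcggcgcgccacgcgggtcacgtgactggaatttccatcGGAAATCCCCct
Nfkb2, chr19:46304487-46304736, plus strand: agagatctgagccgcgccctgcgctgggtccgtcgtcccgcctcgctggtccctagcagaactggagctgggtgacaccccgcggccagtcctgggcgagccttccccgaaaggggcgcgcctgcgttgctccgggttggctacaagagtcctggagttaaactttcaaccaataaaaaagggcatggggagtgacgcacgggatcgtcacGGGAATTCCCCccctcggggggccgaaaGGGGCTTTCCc
Ier3, chr17:35821463-35821712, plus strand: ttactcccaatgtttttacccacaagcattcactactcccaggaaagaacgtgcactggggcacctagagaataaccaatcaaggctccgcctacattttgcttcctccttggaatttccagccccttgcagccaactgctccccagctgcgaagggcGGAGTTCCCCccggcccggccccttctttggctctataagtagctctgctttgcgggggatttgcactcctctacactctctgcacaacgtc
The match of Nfkbia starts 29 bases before the transcription start. Those of Tnfaip3 start at 125 and 12 bases before it, and that of Ier3 at 92 bases. These starts are those of RefSeq. By the gene coordinates of the count table Tnfaip3 starts at 19015657 on the minus strand, so both of its matches lie within that gene. Ier3 starts there at 35821684, after its match but within its window. In Nfkb2 a pair of overlapping matches starts 39 and 38 bases before the start and a further match 11 bases before it. Windows of Nfkb2 from later starts, not shown, held matches 236 and 225 bases before those starts. Of the other windows, those of Bcl3 and Cebpb and that of Tnfaip3 from a later start held no match. This says only that these letters are not in that stretch. The C/EBP element TTNNGNAA, searched on both strands, matched in 2 of the 6 genes (Tnfaip3 and Nfkb2) and in 36.8% of all windows. One match in Tnfaip3 read the same element on both strands, and the match in the Nfkb2 window from a later start overlapped a kB match. A match is a description of sequence and was not tested as a binding site.

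Total counts ran from 13.03 to 14.67 M in the 1st set and from 15.39 to 26.99 M in the 2nd set. The study's text describes the mice as male, and the sets differed in sex-linked transcripts. Xist, which is transcribed from the inactive X chromosome, had 2245 to 2712 CPM (CPM, a gene's count scaled to a common library total) in libraries of the 1st set. In libraries of the 2nd set it had 0.0992 to 0.555 CPM, so those of the 1st set go against that description. Dose, set and sex of the libraries therefore cannot be told apart beyond the comparison of each dose with its own controls. All 10 markers of bulb neurons held counts in every group. Control replicate 2 of the 2nd set, the deepest library, stood apart from its group for these genes. In it 9 of the 10 members lay above the control mean of the set, with a median of 0.33 on the log2 scale, against 1 and 3 members in control replicates 1 and 3.

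At the high dose the feedback gene Ier3 and the transcription factor gene Cebpd rose, each about 2.81-fold, and no member fell. Nfkbia, Nfkb2, Tnfaip3 and Relb were higher in all 3 high-dose libraries than in all 3 controls, yet none of them passed the test across all genes. Nfkb1, the most counted subunit gene, had overlapping groups. With edgeR's quasi-likelihood test and Benjamini-Hochberg adjustment, 2 of 10 members were called higher, beside 0.521% of the 17467 genes tested. At an unadjusted p under 0.05 there were 8 members, all of them higher, beside 5.75% of all genes in that direction. The log2 fold change was positive in 10 of 10 members, beside 47.2% of all genes, with a median of 0.84, beside a median of -0.01 over all genes tested. In 7 of 10 members every high-dose library lay above every control, as did 6.08% of all genes tested. The filter on low counts kept all 10 members. Bcl3 held 0 to 18 counts in control libraries and 23 to 66 counts in exposed libraries, so that its passing rested on the exposed ones. It therefore adds nothing to the counts of 8 and 10 members above.

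**Figure D1:**
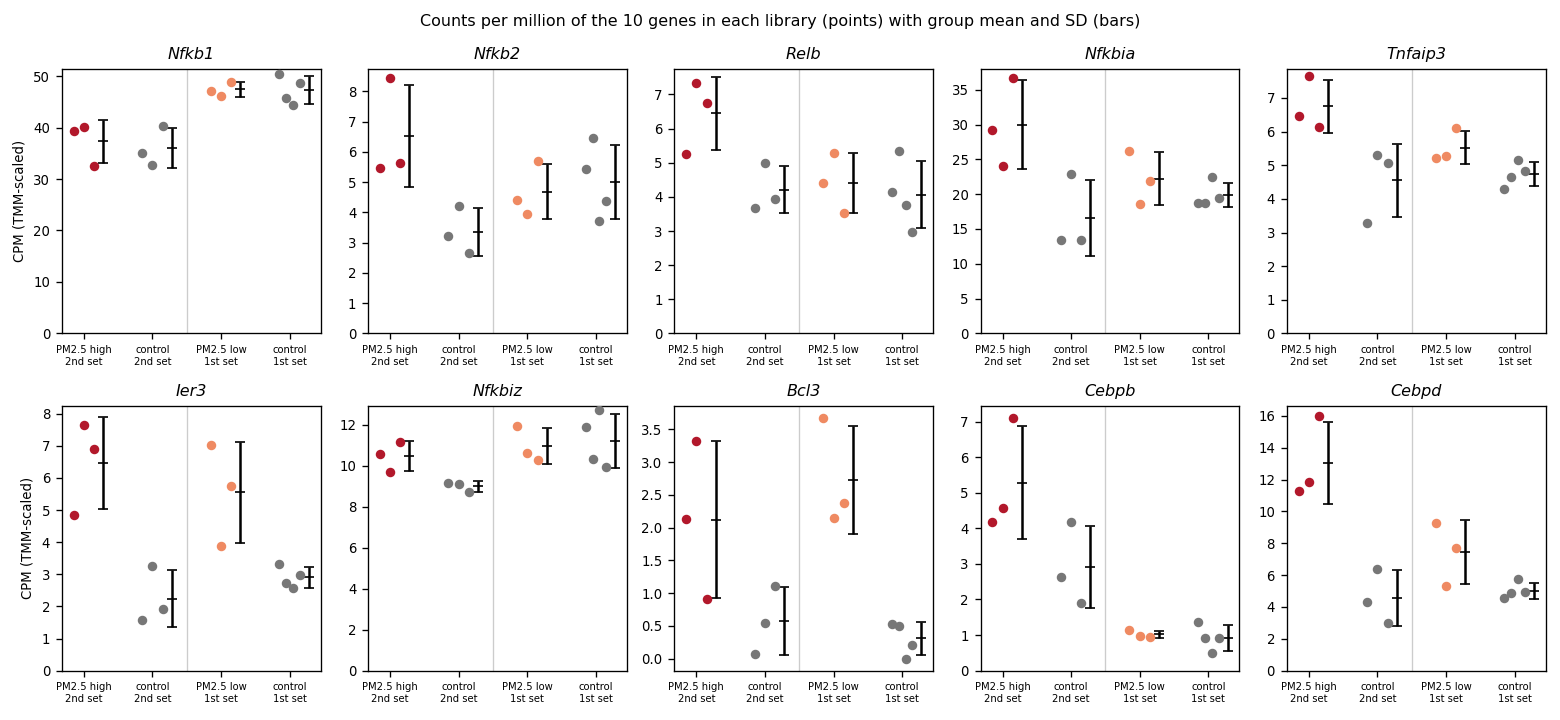
CPM (y axis, each panel with its own scale) of the 10 genes in every library, with the group mean and SD beside the points. Ier3 and Cebpd separate the high-dose libraries from the controls of the 2nd set, while the groups of Nfkb1 overlap.

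Among the subunits, Nfkb2 encodes a precursor that is processed to a DNA-binding subunit of the non-canonical pathway. Nfkb2 (ENSMUSG00000025225, mm10 chromosome 19, 46304737 to 46312090) stood at 5.46, 8.45 and 5.63 CPM in high-dose replicates 1 to 3, against 3.22, 4.21 and 2.65 CPM in controls 1 to 3. The groups did not overlap, but the log2 fold change of 0.94 (SE 0.26) missed the threshold (edgeR adjusted p = 0.152). Exons of Nfkb2 share 299 of their 4584 bases with exons of Psd on the opposite strand, and 531 with a gene model not analysed here. The strand setting of the counting is not given. Psd was far more abundant, at 299 ± 12.8 CPM at the high dose and 253 ± 25.8 CPM in the controls (SD, n = 3 each), and was not called (log2 fold change 0.24, adjusted p = 0.419). The part of these reads in the Nfkb2 value was not tested.

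Relb, the partner of the processed Nfkb2 product, stood at 5.26, 7.35 and 6.75 CPM in high-dose replicates 1 to 3, against 3.68, 4.99 and 3.95 CPM in the controls. All high-dose libraries were above all controls, with replicate 1 close to the highest control (log2 fold change 0.61, SE 0.23, edgeR adjusted p = 0.361). Nfkb1, which encodes a precursor of the classical DNA-binding subunit, stood at 39.4, 40.1 and 32.6 CPM at the high dose, against 35.1, 32.7 and 40.3 CPM in the controls. The groups covered the same range (log2 fold change 0.05, SE 0.11, edgeR adjusted p = 0.952).

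Among the feedback genes, Ier3 showed the largest fold change. Ier3 is an early response gene whose product has been linked to survival of stimulated cells. Ier3 (ENSMUSG00000003541, mm10 chromosome 17, 35821684 to 35822923) stood at 4.86, 7.65 and 6.91 CPM in high-dose replicates 1 to 3, against 1.58, 3.25 and 1.91 CPM in the controls. The lowest high-dose library was above the highest control. The log2 fold change was 1.49 (SE 0.28, edgeR adjusted p = 0.0278). The call was lost without control replicate 1 (adjusted p = 0.0676) or 3 (0.128) or high-dose replicate 2 (0.0825) or 3 (0.0518), with log2 fold changes from 1.32 to 1.46.

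Nfkbia encodes IkB alpha, the inhibitor that is resynthesised after NF-kB activation. Nfkbia (ENSMUSG00000021025, mm10 chromosome 12, 55489411 to 55492647) stood at 29.2, 24.0 and 36.7 CPM in high-dose replicates 1 to 3, against 13.5, 22.9 and 13.4 CPM in the controls. The high-dose libraries were above the controls, although control replicate 2 came close to high-dose replicate 2. The log2 fold change of 0.85 (SE 0.21) missed the threshold (edgeR adjusted p = 0.0978). Without control replicate 2 it was 1.14 with an adjusted p of 0.00894, so that 1 library decided this call.

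Tnfaip3 encodes a ubiquitin-editing enzyme that shuts off signalling upstream of NF-kB. It stood at 6.45, 7.65 and 6.15 CPM in high-dose replicates 1 to 3, against 3.29, 5.29 and 5.06 CPM in the controls. The groups did not overlap, and the log2 fold change was 0.56 (SE 0.19, edgeR adjusted p = 0.286).

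Neither nuclear IkB gene was called. Bcl3, whose product binds NF-kB dimers in the nucleus, stood at 2.13, 3.32 and 0.918 CPM in high-dose replicates 1 to 3 (43, 66 and 23 counts), against 0.0658, 0.541 and 1.11 CPM in the controls (1, 14 and 18 counts). High-dose replicate 3 lay below control replicate 3, and the log2 fold change of 1.86 (SE 0.68) was not called (edgeR adjusted p = 0.343). Nfkbiz, a nuclear cofactor of NF-kB that is needed for a subset of induced genes, stood at 10.6, 9.71 and 11.2 CPM at the high dose, against 9.14, 9.12 and 8.70 CPM in the controls. The groups did not overlap, but the log2 fold change was 0.22 (SE 0.14, edgeR adjusted p = 0.682).

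Of the C/EBP genes, Cebpd (ENSMUSG00000071637, mm10 chromosome 16, 15887286 to 15888466) stood at 11.3, 11.8 and 15.97 CPM in high-dose replicates 1 to 3, against 4.34, 6.42 and 2.96 CPM in the controls. The groups were well apart, with a log2 fold change of 1.49 (SE 0.26, edgeR adjusted p = 0.0166). The call was lost without control replicate 3 (log2 fold change 1.26, adjusted p = 0.0662). Cebpb stood at 4.17, 4.58 and 7.10 CPM at the high dose, against 2.63, 4.17 and 1.91 CPM in the controls. Control replicate 2 reached the level of high-dose replicate 1, and the log2 fold change of 0.84 (SE 0.32) was not called (edgeR adjusted p = 0.353). Exons of Cebpb share 312 of their 1504 bases with Tmem189 on the opposite strand, which stood at 18.5 ± 0.931 CPM at the high dose and 18.5 ± 4.39 CPM in the controls (SD, n = 3 each).

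Both calls at the high dose rest on fitting the sets together. A separate fit of the 2nd set called 0 members and 4 genes in all. Its edgeR adjusted p was 0.276 for Ier3 and 0.189 for Cebpd at log2 fold changes of 1.51 and 1.499. At an unadjusted p under 0.05 it held 8 members and 952 genes in all. Bcl3 passed the filter only through exposed libraries and adds nothing to these 8. DESeq2's Wald test called 4 members among 291 genes in all, with adjusted p of 0.0120 for Nfkbia and 0.0494 for Nfkb2 in addition. Limma-voom called 2 members among 105 genes, and the main fit 2 among 112. Without control replicate 2, which stood apart, 3 members were called by edgeR. They were Cebpd (log2 fold change 1.82, adjusted p = 0.00712), Ier3 (1.87, adjusted p = 0.00943) and Nfkbia, while the value of Nfkb1 turned to -0.03.

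Summed markers of several cell types differed between high-dose bulbs and controls. All 6 perivascular macrophage markers held counts, and their sum ran from 19.2 to 28.3 CPM in high-dose libraries and from 8.64 to 14.8 CPM in the controls. Neutrophil markers summed to 5.91 to 9.46 CPM (8 of 8 with counts) at the high dose and 0.789 to 2.28 CPM in the controls, where Ly6g, Cxcr2 and Camp were at 0. Monocyte markers summed to 1.29 to 3.03 CPM (4 of 4) at the high dose and 0.329 to 0.679 CPM in the controls, where Ly6c2 was at 0. Astrocyte markers (6 of 6) summed to 4038 to 4505 CPM at the high dose against 2955 to 3821 CPM in the controls, and microglial markers (6 of 6) to 289 to 346 CPM at the high dose against 232 to 276 CPM in the controls. Bulb neuron markers (10 of 10) summed to 3269 to 3663 CPM at the high dose and 3688 to 3891 CPM in the controls, with no overlap. Of these 10 genes 0 were called, and 2 had a positive log2 fold change. Red cell markers (5 of 5) summed to 114 to 302 CPM at the high dose and 97.2 to 119 CPM in the controls. The sums of endothelial markers (157 to 185 CPM at the high dose against 141 to 192 CPM in the controls) and lymphocyte markers (4.53 to 6.35 CPM at the high dose against 4.13 to 5.95 CPM in the controls, where Cd3d was at 0) overlapped between the groups. The part of these cells in the values of the 10 genes was not tested.

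At the low dose Bcl3, Ier3 and Tnfaip3 were higher in all 3 exposed libraries than in all 4 controls, but no member passed the test across all genes. With edgeR's quasi-likelihood test 0 of 10 members and 0 of the 17467 genes tested were called, beside 429 genes (2.46%) at an unadjusted p under 0.05. At that unadjusted p there were 3 members, all of them higher (Bcl3, Ier3 and Cebpd), beside 1.31% of all genes in that direction. The log2 fold change was positive in 8 of 10 members, beside 50.9% of all genes, with a median of 0.16, beside a median of 0.00 over all genes tested. Every low-dose library lay above every control in 3 of 10 members, as in 3.71% of all genes. Bcl3 is in each of these counts of members, but it passed the filter on low counts only through exposed libraries and so adds nothing to them. Bcl3 (ENSMUSG00000053175, mm10 chromosome 7, 19808462 to 19822770) stood at 3.67, 2.15 and 2.37 CPM in low-dose replicates 1 to 3 (55, 31 and 35 counts), against 0.529, 0.493, 0 and 0.213 CPM in controls 1 to 4 (7, 7, 0 and 3 counts). The lowest low-dose library was above the highest control, with a log2 fold change of 3.13 (SE 0.71, unadjusted p = 0.000594, edgeR adjusted p = 0.50). Exons of Bcl3 overlap those of the antisense gene Gm16175, which held at most 2 counts in any library. DESeq2's Wald test, with an adjusted p of 0.0147, called Bcl3 at this dose, while the separate fit of the 1st set and limma-voom did not.

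Of the feedback genes, Ier3 stood at 7.02, 3.89 and 5.76 CPM in low-dose replicates 1 to 3, against 3.33, 2.74, 2.58 and 2.98 CPM in controls 1 to 4. All low-dose libraries were above all controls, with replicate 2 nearest to them (log2 fold change 0.93, SE 0.27, unadjusted p = 0.00343, edgeR adjusted p = 1). Tnfaip3 stood at 5.21, 5.27 and 6.10 CPM in low-dose libraries, against 4.31, 4.64, 5.17 and 4.82 CPM in the controls. These groups were separated by a narrow gap, and the log2 fold change was 0.22 (SE 0.18). Nfkbia stood at 26.3, 18.6 and 21.9 CPM in low-dose libraries, against 18.7, 18.8, 22.4 and 19.4 CPM in the controls. Low-dose replicate 1 lay above the control range and the others within it or just below it, and the log2 fold change was 0.16 (SE 0.20).

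Cebpd stood at 9.29, 5.34 and 7.72 CPM in low-dose replicates 1 to 3, against 4.53, 4.85, 5.73 and 4.96 CPM in controls 1 to 4. Low-dose replicate 2 lay below control replicate 3, and the log2 fold change was 0.57 (SE 0.25, unadjusted p = 0.0365, edgeR adjusted p = 1). Cebpb was scarce in this set, at 1.14, 0.971 and 0.948 CPM in low-dose libraries against 1.36, 0.915, 0.489 and 0.921 CPM in the controls. All low-dose libraries lay within the control range (log2 fold change 0.15, SE 0.39).

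The subunit genes overlapped between the groups at the low dose. Nfkb1 stood at 47.2, 46.1 and 48.9 CPM in low-dose libraries, against 50.5, 45.7, 44.4 and 48.7 CPM in the controls (log2 fold change 0.00, SE 0.10). Nfkb2 stood at 4.41, 3.95 and 5.69 CPM in low-dose libraries, against 5.44, 6.47, 3.70 and 4.39 CPM in the controls (log2 fold change -0.09, SE 0.25). Relb stood at 4.41, 5.27 and 3.52 CPM in low-dose libraries, against 4.16, 5.35, 3.77 and 2.98 CPM in the controls (log2 fold change 0.11, SE 0.23). The nuclear IkB gene Nfkbiz stood at 11.96, 10.6 and 10.3 CPM in low-dose libraries, against 11.9, 10.3, 12.7 and 9.92 CPM in the controls (log2 fold change -0.03, SE 0.13). In none of these 4 genes did a low-dose library leave the range of its controls.

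**Figure D2:**
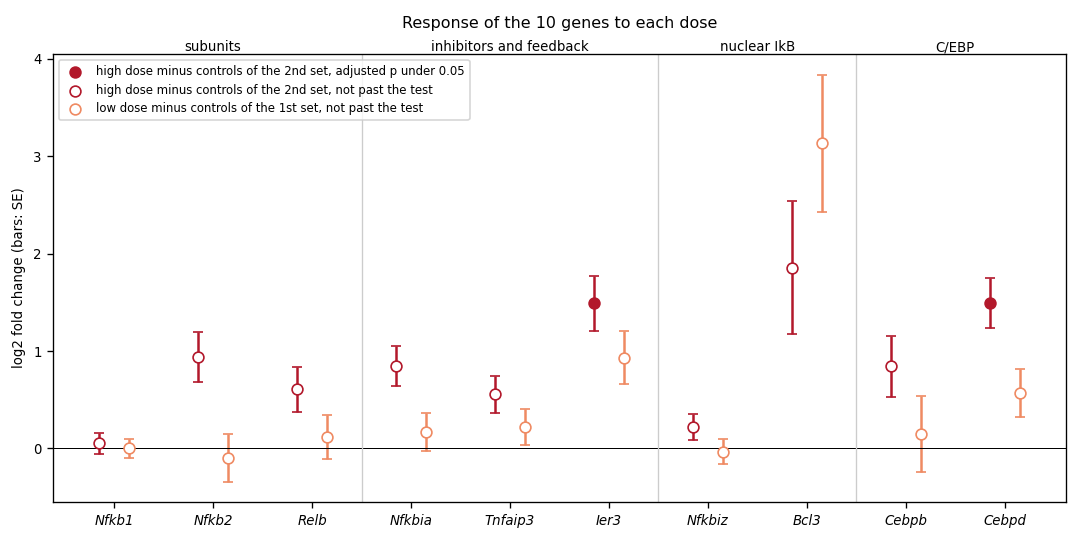
Log2 fold change (y axis) of each of the 10 genes at the high dose and at the low dose, each against the controls of its own set, with bars of 1 standard error and filled points for genes past the test. High-dose values are positive in 10 of 10 genes with a median of 0.84, low-dose values in 8 of 10 with a median of 0.16, and Bcl3 has the widest bars.

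Of the marker sums, that of monocytes did not overlap between the groups at the low dose. Monocyte markers summed to 2.71 to 3.14 CPM in low-dose libraries and 0.838 to 1.97 CPM in the controls. The groups overlapped for perivascular macrophage markers (22.3 to 30.6 CPM in low-dose libraries and 19.4 to 29.9 CPM in the controls) and for neutrophil markers (1.76 to 2.71 CPM in low-dose libraries and 1.06 to 2.27 CPM in the controls, where Camp was at 0). They also overlapped for astrocyte markers (3470 to 3804 CPM in low-dose libraries and 3519 to 3714 CPM in the controls) and for microglial markers (260 to 285 CPM in low-dose libraries and 234 to 269 CPM in the controls). Endothelial markers (185 to 197 CPM in low-dose libraries and 195 to 239.5 CPM in the controls), lymphocyte markers (4.34 to 8.20 CPM in low-dose libraries and 5.14 to 7.33 CPM in the controls) and red cell markers (86.4 to 117 CPM in low-dose libraries and 40.1 to 109 CPM in the controls) overlapped as well. So did bulb neuron markers (3696 to 3798 CPM in low-dose libraries and 3458 to 3712 CPM in the controls). The part of monocytes in the values of Bcl3 and Ier3 was not tested.

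The design also allows the responses to be compared with each other, as the high-dose log2 fold change minus the low-dose one. No member differed by that test in edgeR, where the smallest adjusted p of a member was 0.709, and 0.00573% of all genes (1 gene, Icam1) was called. An unadjusted p under 0.05 was found for 3 members, beside 5.99% of all genes. The response of Nfkb2 was larger by 1.03 at the high dose (SE 0.36, unadjusted p = 0.0115, edgeR adjusted p = 0.709). For Cebpd the difference was 0.92 (SE 0.36, unadjusted p = 0.0214, edgeR adjusted p = 0.725), and for Nfkbia it was 0.68 (SE 0.29, unadjusted p = 0.0314, edgeR adjusted p = 0.758). The high-dose response was the larger one in 9 of 10 members, beside 48.1% of all genes. Bcl3 was the exception, with a difference of -1.28 (SE 1.01). The doses were given to different sets, so a difference between doses cannot be told apart from a difference between sets.

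The mean of the high-dose and low-dose log2 fold changes averages the response over the sets. By this test Ier3 and Cebpd rose and no member fell, where 0.424% of all genes were called higher and 0.0687% lower. Bcl3 was called as well, but it passed the filter on low counts only through its exposed libraries and so adds nothing to that count. Ier3 had a mean log2 fold change of 1.21 (SE 0.20, edgeR adjusted p = 0.0120), and its call was kept in each of the 13 fits that left out 1 library. Cebpd had 1.03 (SE 0.18, edgeR adjusted p = 0.0171), and its call was lost without low-dose replicate 1 (adjusted p = 0.0564) or 3 (0.0605). Bcl3 had the largest mean, 2.49 (SE 0.49, edgeR adjusted p = 0.0425), but its call was lost in 11 of the 13 such fits, with adjusted p up to 0.143. It was kept only without control replicate 3 of the 2nd set or high-dose replicate 3. Nfkbia, at a mean of 0.51 (SE 0.14), was not called (edgeR adjusted p = 0.218), but it was called in place of Bcl3 without control replicate 2 of the 2nd set.

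Set against the mean of its own controls, the median log2 difference over the 10 genes was 0.64, 0.78 and 0.86 in high-dose replicates 1 to 3, with 10, 10 and 9 genes above. It was -0.12, 0.33 and -0.12 in controls 1 to 3 of the 2nd set. In low-dose replicates 1 to 3 it was 0.24, 0.12 and 0.18, with 8, 6 and 8 genes above, against 0.09, -0.03, -0.08 and -0.02 in controls 1 to 4 of the 1st set. Each high-dose library thus had a higher median than any other library, and control replicate 2 of the 2nd set had a higher median than any low-dose library.

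**Figure D3:**
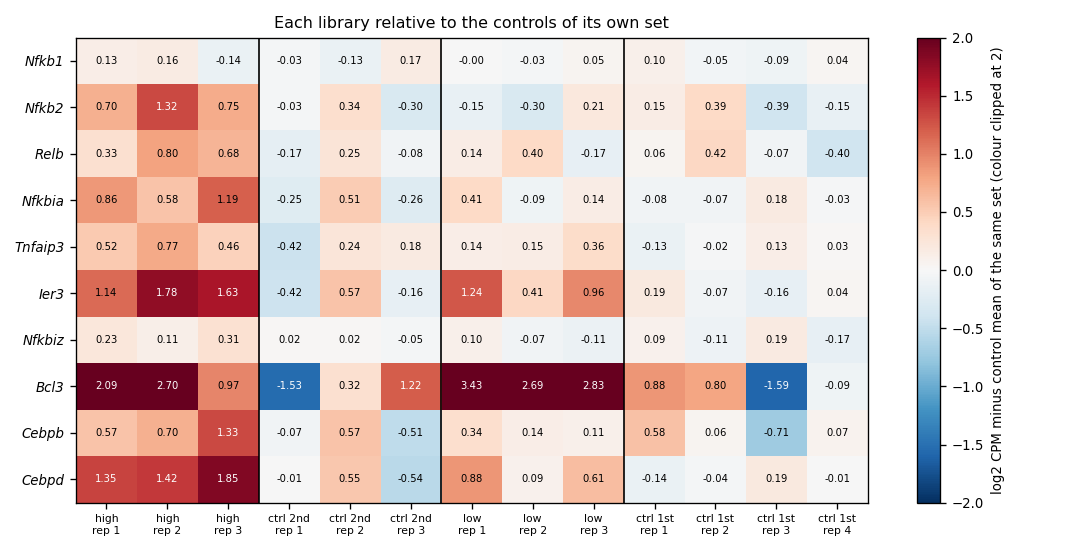
Log2 CPM of the 10 genes in each of the 13 libraries, centred on the mean of the controls of the same set (colour scale in log2 units). The high-dose libraries are above their controls in most genes, and control replicate 2 of the 2nd set stands above the other controls, with 9 of 10 genes over the control mean.

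Levels can be compared between genes only per length, as FPKM (fragments scaled to a gene length and the library total). The lengths behind the deposited FPKM are the authors' own, and they differ from the union of GENCODE M21 exons. For Cebpd they are 1180 and 3746 bases, for Tnfaip3 13958 and 7226, and for Nfkb1 16227 and 12061. In the controls of the 2nd set the order ran from Nfkbia (10.3 ± 3.16) over Cebpd (3.78 ± 1.37), Nfkb1 (2.18 ± 0.269), Ier3 (1.94 ± 0.722) and Cebpb (1.88 ± 0.712) to Nfkbiz (1.23 ± 0.0290 FPKM, SD, n = 3 each). Below 1 FPKM followed Nfkb2 (0.971 ± 0.209), Relb (0.744 ± 0.108), Tnfaip3 (0.319 ± 0.0744) and Bcl3 (0.155 ± 0.143 FPKM, SD, n = 3 each). Per exon base of GENCODE M21, Nfkbia stayed first and Tnfaip3 and Bcl3 last, while Cebpd moved to rank 6 and Relb stood above Nfkb2, so the order between them rests on the lengths. In FPKM the ranges overlapped between the neighbours Nfkb1 and Ier3, Ier3 and Cebpb, Nfkb2 and Relb, and Tnfaip3 and Bcl3. At the high dose Nfkbia (18.7 ± 3.96) and Cebpd (10.8 ± 2.12) again led in FPKM. Ier3 (5.62 ± 1.25) and Cebpb (3.45 ± 1.03) then stood above Nfkb1 (2.26 ± 0.254 FPKM, SD, n = 3 each). Bcl3 stood at 0.763 ± 0.236 FPKM at the low dose (SD, n = 3) and at 0.0862 ± 0.0695 FPKM in the controls of the 1st set (SD, n = 4).

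**Figure D4:**
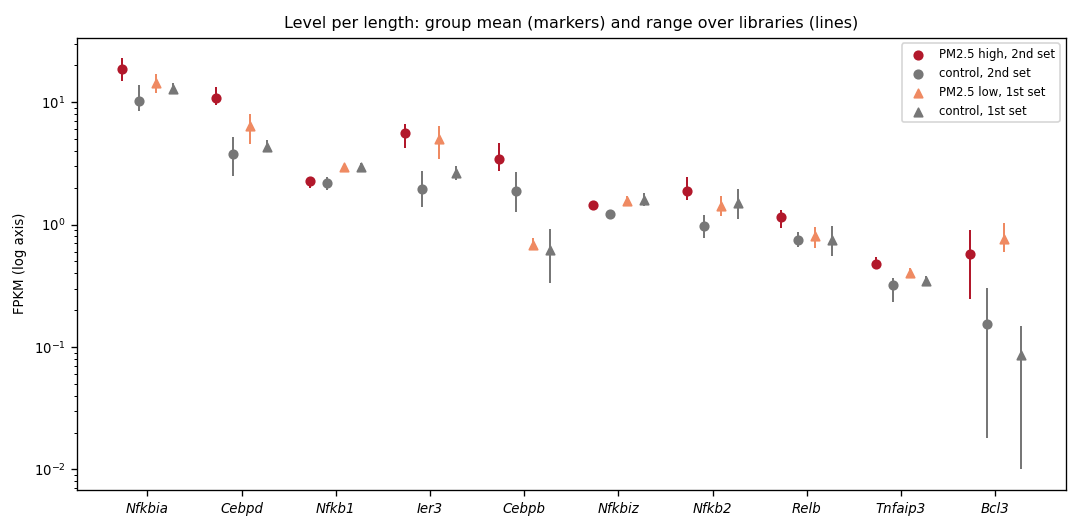
FPKM (log axis) of the 10 genes in the 4 groups, as the mean (marker) and the range over libraries (line), ordered by level in the controls of the 2nd set. Nfkbia is at the top and Bcl3 at the bottom in these controls, and the value of 0 for Bcl3 in control replicate 3 of the 1st set is drawn at 0.01.

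Between the untreated bulbs of the sets 2 of 10 members were called, beside 19.3% of all genes (10.5% higher and 8.74% lower). Members were thus called about as often as genes in general. Cebpb was higher in the controls of the 2nd set, at 2.91 ± 1.16 CPM (SD, n = 3), against 0.921 ± 0.356 CPM in those of the 1st set (SD, n = 4). The log2 difference was 1.68 (SE 0.34, edgeR adjusted p = 0.00591). Nfkb1 was lower, at 36.0 ± 3.91 CPM in the 2nd set (SD, n = 3) and 47.3 ± 2.77 CPM in the 1st (SD, n = 4), a log2 difference of -0.40 (SE 0.10, edgeR adjusted p = 0.0156). The Nfkb1 call was lost without control replicate 2 of the 2nd set (adjusted p = 0.0885). Tmem189, the opposite-strand neighbour of Cebpb, stood at 18.5 ± 4.39 CPM in the 2nd set (SD, n = 3) and 17.5 ± 2.47 CPM in the 1st (SD, n = 4). Set and sex of the libraries cannot be told apart here.

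For the members called at the high dose, the genes with the most similar pattern were found by the root mean square difference of centred log2 CPM over the 13 libraries, among 16038 genes with a mean of at least 1 CPM. Nearest to Ier3 were Fcgr2b (0.283), F13a1 (0.284) and Adora3 (0.289), against a median of 0.912 over all genes. Nearest to Cebpd were Fcgr2b (0.270), Rac2 (0.280) and Socs3 (0.285), against a median of 0.853. Ier3 and Cebpd differed from each other by 0.294. Of these neighbours, F13a1 is also on the list of perivascular macrophage markers.

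Other genes of the NF-kB pathway come from a list that was also chosen with earlier results known. Of 41 other signalling genes (receptors, adaptors, kinases, further subunits and inhibitors), 40 were tested. At the high dose 1 was higher and 0 lower in edgeR, where 0.521% of all genes were called higher. There were 9 higher and 2 lower at an unadjusted p under 0.05, where 5.75% of all genes were higher, and the median log2 fold change was 0.15. Low-dose exposure gave 0 calls, with 4 higher (against 1.31% of all genes) and 0 lower unadjusted and a median of 0.07. The called gene was Il1r1, the interleukin 1 receptor that signals to NF-kB. It stood at 5.71, 7.90 and 5.71 CPM in high-dose replicates 1 to 3, against 4.01, 2.40 and 2.41 CPM in the controls (log2 fold change 1.14, SE 0.24, edgeR adjusted p = 0.0431). All high-dose libraries were above all controls, but the call was lost in 11 of the 13 fits that left out 1 library, with adjusted p up to 0.179. It was kept only without control replicate 3 of the 1st set or control replicate 1 of the 2nd. At the low dose Il1r1 averaged 8.06 ± 0.751 CPM (SD, n = 3) against 4.15 ± 0.770 CPM in the controls (SD, n = 4) and was not called (log2 fold change 0.96, edgeR adjusted p = 0.50). Tlr2, a receptor for bacterial lipoproteins, had a log2 fold change of 1.62 at the high dose (SE 0.38, edgeR adjusted p = 0.0783) and of 0.08 at the low dose. Irak3, an inhibitor of Toll-like receptor signalling, had 0.52 at the high dose and 0.78 at the low dose, and neither was called.

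Of 18 C/EBP relatives and inducers of C/EBP genes, 16 were tested. At the high dose 1 was higher and 0 lower, with 3 higher and 1 lower at an unadjusted p under 0.05 (0.521% of all genes were called higher and 5.75% were higher unadjusted) and a median log2 fold change of 0.14. Low-dose exposure gave 0 calls here too, with 2 higher and 1 lower unadjusted, where 1.31% of all genes were higher, and a median of 0.05. The called gene was Osmr, the receptor subunit for oncostatin M, a cytokine that acts through STAT3. Osmr stood at 15.1, 23.5 and 12.2 CPM in high-dose replicates 1 to 3, against 5.85, 5.37 and 5.25 CPM in the controls. The groups were well apart (log2 fold change 1.62, SE 0.21, edgeR adjusted p = 0.00242), and the call was kept in all 13 fits that left out 1 library. Osmr averaged 18.2 ± 0.628 CPM at the low dose (SD, n = 3) against 10.6 ± 1.38 CPM in the controls (SD, n = 4), and was not called (log2 fold change 0.78, edgeR adjusted p = 0.50). Socs3, a feedback inhibitor of STAT3 signalling, had log2 fold changes of 1.01 at the high dose (SE 0.27, edgeR adjusted p = 0.126) and 0.59 at the low dose. Nr3c1, the glucocorticoid receptor gene, had 0.14 at the high dose and -0.48 at the low dose, and neither was called.

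Of 16 listed NF-kB targets, 13 were tested, and at the high dose 5 were higher and 0 lower, where 0.521% of all genes were called higher. Sele is among these 5 and among the genes higher at an unadjusted p under 0.05 at both doses. It passed the filter on low counts only through exposed libraries and so adds nothing to these counts. Whether other scarce targets passed it in the same way was not tested. At an unadjusted p under 0.05 there were 10 higher and 1 lower, where 5.75% of all genes were higher, and the median log2 fold change was 1.64. No test compared the lists with each other. In low-dose bulbs 0 were called, with 5 higher and 1 lower unadjusted, where 1.31% of all genes were higher, and the median was 0.19. The lower gene was Dusp1 at both doses, a phosphatase gene that limits MAP kinase signalling, named after its values were seen. Its log2 fold change was -0.78 at the high dose (SE 0.23, edgeR adjusted p = 0.205) and -0.49 at the low dose (SE 0.22, edgeR adjusted p = 1), so it was not called. The adhesion molecule gene Icam1 averaged 9.38 ± 0.925 CPM at the high dose and 1.44 ± 0.133 CPM in the controls (SD, n = 3 each), a log2 fold change of 2.71 (SE 0.21, edgeR adjusted p = 3.69e-05). Vcam1, a second adhesion molecule of activated endothelium, averaged 27.9 ± 4.497 CPM at the high dose and 15.03 ± 0.611 CPM in the controls (SD, n = 3 each), a log2 fold change of 0.89 (SE 0.13, edgeR adjusted p = 0.00831). The chemokine gene Cxcl10 averaged 4.49 ± 0.450 CPM at the high dose and 0.489 ± 0.0926 CPM in the controls (SD, n = 3 each), a log2 fold change of 3.15 (edgeR adjusted p = 0.00242). Ch25h, which encodes an oxysterol-producing enzyme, averaged 2.08 ± 1.11 CPM at the high dose and 0.252 ± 0.159 CPM in the controls (SD, n = 3 each), a log2 fold change of 3.05 (edgeR adjusted p = 0.0128). Sele, the gene of endothelial E-selectin, held 0 counts in every control library of both sets. It averaged 1.25 ± 0.101 CPM at the high dose (SD, n = 3), at least 23.9-fold higher than the controls, which were set at a floor of 3 counts over the group, and was called (edgeR adjusted p = 0.00497). At the low dose it averaged 0.294 ± 0.0347 CPM (SD, n = 3), at least 5.48-fold higher by the same floor, and was not called. In the separate fit of the 2nd set Icam1 and Cxcl10 were still called, while Vcam1 (edgeR adjusted p = 0.123), Ch25h (0.171), Sele (0.0635), Il1r1 (0.374) and Osmr (0.0986) were not. At the low dose the separate fit of the 1st set called Osmr (edgeR adjusted p = 0.0308), DESeq2 called Il1r1 (adjusted p = 0.0490) and limma-voom called Sele (adjusted p = 0.0298). Sele at its bound still lies above the medians of the list, so putting it there could not change their values of 1.64 and 0.19. The loci of Icam1, Vcam1, Cxcl10 and Ch25h overlap gene models on the opposite strand, whose part in these values was not tested.

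**Figure D5:**
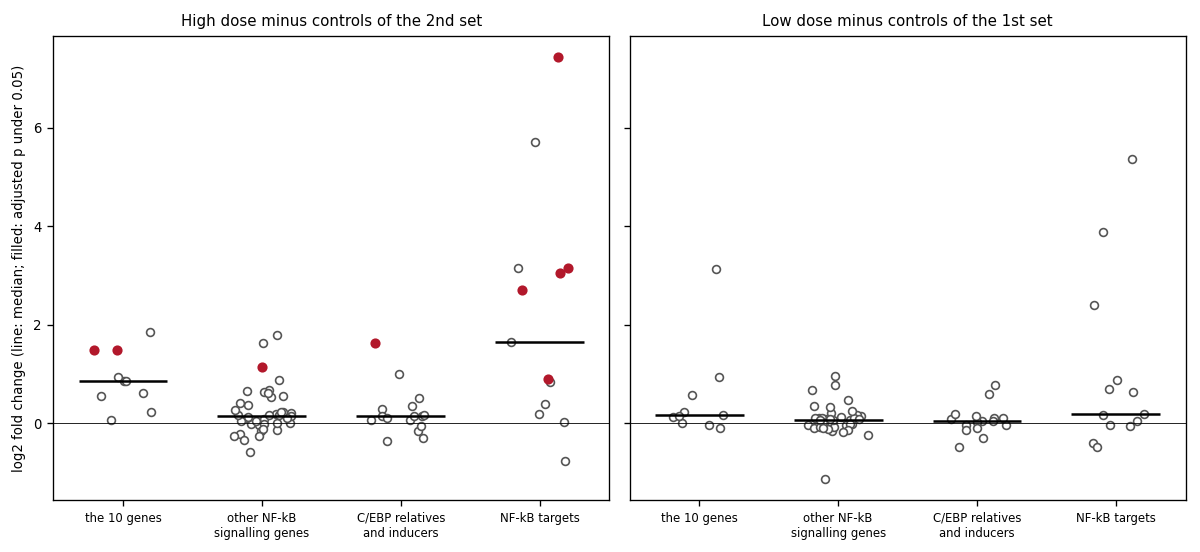
Log2 fold change (y axis) of the 10 genes and of the tested genes of the 3 lists of related genes, at the high dose and at the low dose, with each median as a line and genes past the test as filled points. The NF-kB targets have a median of 1.64 at the high dose and 0.19 at the low dose, and the fitted value of Sele, at 0 in all controls, depends on the prior count.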

How the data were processed

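The data are 1 table of 13 mouse olfactory bulb libraries. Per the labels, total RNA was isolated with an RNeasy mini kit and stranded TruSeq total RNA libraries were made. Per the submitters' processing notes the reads were aligned to mm10 with HISAT2. Which counter, annotation and strand setting were used is not given in the sources used here. The authors deposited whole-number read counts and FPKM per gene. In each library FPKM equals count per length and total, with a relative deviation of at most 8.75e-06. Of the 34745 gene IDs, 34267 matched GENCODE M21, 27699 of them with identical coordinates.

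From the deposited counts, CPM were computed on the library totals over the genes kept by the filter, scaled by TMM factors. All 4 groups were fitted together with edgeR 4.0.16 (TMM, filterByExpr, quasi-likelihood F test, 17467 genes kept, 9 residual degrees of freedom) in R 4.3.3. Contrasts were each dose against the controls of its own set, their difference, their mean, and the controls of the sets. P-values were Benjamini-Hochberg adjusted over all genes tested, with a threshold of 0.05. Standard errors (SE) are derived from the fitted log2 fold change and its F value. The steps were tested on simulated data. Alternatives used DESeq2 1.42.0, limma 3.58.1 (voom, and a trend fit on log2(FPKM + 1) of the deposited FPKM), other scalings and filters, separate fits, a replicate block and leaving out each library. Replicate libraries differed from each other by more than counting noise, and none were merged. Promoter windows came from a RefSeq table (GRCm38.p6).

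The 10 members and the lists of related genes were chosen with earlier results of these data known. Named were all members, list genes past the test at either dose, the 2 genes with the smallest p per list and dose, and the 3 genes nearest in pattern to each called member.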

Additional observations from a re-analysis of the deposited data

Results flagged for a closer look

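Icam1 responded by a log2 fold change of 2.71 at the high dose and 0.63 at the low dose. The difference of 2.08 (SE 0.28, edgeR adjusted p = 0.0433) passed the test between the responses, and Icam1 was the only gene of 17467 to do so. This call was lost in 11 of the 13 fits that left out 1 library, with adjusted p up to 0.221, at differences of 1.94 to 2.20. It was kept without control replicate 1 or high-dose replicate 1 of the 2nd set. Dose and set cannot be told apart in this difference.

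Vcam1 in the controls of the 1st set had 1 library at 21.7 CPM, apart from the others at 19.1 to 19.5 CPM. Dixon's ratio was 0.856, above the critical value of 0.829 for 4 samples. Such a gap arises by chance in about 1 of 20 groups, and 21 groups of 4 were examined.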

How the results depend on the processing

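The number of genes called at the high dose was 112, and it was 291 with DESeq2's Wald test, 69 with at least 1 CPM in every library, 4 in the separate fit, 5 with the replicate block and 21 to 138 when 1 library was left out. At the low dose 0 genes were called, against 19 with DESeq2, 2 with limma-voom, 2 with limma on log2(FPKM + 1), 9 in the separate fit and 0 to 2 when 1 library was left out. With both the deepest control and the deepest exposed library left out, an alternative chosen after seeing the data, 132 genes were called at the high dose and 1 at the low dose. Members called at the high dose numbered 2, against 4 with DESeq2, 0 in the separate fit, 0 with the block and 0 to 3 when 1 library was left out. At an unadjusted p under 0.05 the separate fit and the block each had 8 members, among 952 and 1283 genes in all. Bcl3 adds nothing to these. Members called at the low dose numbered 0, against 1 with DESeq2 and 0 in every fit that left out 1 library. In the difference of responses 0 members were called under every alternative. In the mean of responses 3 were called, against 0 with the block and 1 to 3 when 1 library was left out. Between the controls 2 were called, beside 19.3% of all genes. There was 1 with at least 1 CPM in every library, 0 with the block and 1 to 2 when 1 library was left out. With at least 1 CPM in every library Bcl3 and Cebpb had no value. The cause was not tested for any of these shifts, and some of the fits held fewer genes or libraries.

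The log2 fold change of Nfkb1 at the low dose lay at 0 and turned sign: it was -0.0001 with DESeq2 size factors, -0.0011 with limma on log2(FPKM + 1), -0.0042 with at least 1 CPM, -0.0016 in the separate fit and -0.0009 with the deepest pair left out. That of Relb at the low dose was -0.0106 with the replicate block. When 1 library was left out, values that turned sign spanned -0.0301 to 0.156 for Nfkb1 and -0.0176 to 0.458 for Nr3c1 at the high dose, and at the low dose -0.101 to 0.0335 for Nfkbiz, -0.0284 to 0.0353 for Nfkb1, -0.266 to 0.056 for Nfkb2, -0.0401 to 0.276 for Relb, -0.0593 to 0.393 for Cebpb and -0.257 to 0.288 for Tlr2. In the difference of responses Nfkb1 spanned -0.0327 to 0.153. Nr3c1 and Nfkb1 were called at neither dose.

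No pairing of libraries by replicate number was seen, but so few libraries cannot exclude it. Same-numbered exposed and control libraries correlated in their deviations from the group means at 0.004, 0.058 and 0.012 in the 1st set and at 0.134, -0.151 and -0.341 in the 2nd. Libraries with different numbers correlated at -0.061 to 0.058 in the 1st set and at -0.377 to 0.455 in the 2nd. With the block the adjusted p was 0.0871 for Ier3 and 0.183 for Cebpd at the high dose (edgeR). Members with few counts, Bcl3 and Cebpb, have the least precise values.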
